A study of Mus musculus with 12 samples.

Results

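The comparison described here set wild-type mouse keratinocytes transduced with the retroviral oncogene v-rasHa, which encodes an active version of the GTPase Hras, against wild-type control keratinocytes. Keratinocytes are the main cells of the epidermis. The members are all genes with a single symbol on the array, taken from 6 of the series' 12 arrays, 3 of v-rasHa-transduced cells (RAS cells) and 3 of wild-type controls. Of 19938 such genes, 15868 passed a filter on low values and were tested. The cells were primary cultures from FVB/N mice, grown in ordinary medium without starvation. MT-HGF control keratinocytes, from mice of the same strain that carry a transgene for hepatocyte growth factor driven by a metallothionein promoter, gave 3 further arrays. They are described below to show where RAS cells differ from cells that carry a growth factor transgene. The remaining 3 arrays, mock-transduced MT-HGF cells given the EGFR inhibitor AG1478 for 24 h in medium with 8% serum, are not described. Both sets also entered the estimate of the spread, the filter and the choice of each gene's probe cluster. The labels of the RAS, MT-HGF and wild-type arrays all carry the same note of a RAS transduction of 3 days, so the sources used here do not say how the controls were handled, and the oncogene and the transduction step cannot be told apart. The labels name biological replicates but give neither the age or number of animals nor any pooling, so p-values cover no more than the array-to-array spread, part of which may be technical.

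RAS proteins are molecular switches that pass signals from receptor tyrosine kinases such as EGFR to the RAF, MEK and ERK kinases and to PI3K. Oncogenic forms stay bound to GTP. In mouse skin, activation of Hras is the classical initiating event of chemically induced papillomas, and cultured keratinocytes that receive v-rasHa release EGFR ligands and alter their differentiation. Normal differentiation takes cells from the basal layer, with Krt5 and Krt14, through the spinous layer, with Krt1 and Krt10, to the granular and cornified layers, which build the cornified envelope and the lipid barrier.

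Values are log2 expression units made by the authors with RMA, and a difference is the RAS mean minus the wild-type mean, with the standard error (SE) of limma's fit and n = 3 arrays per group. A gene was called at a limma adjusted p under 0.05. Of 15868 genes, 2004 were called higher in RAS cells (12.6%) and 3154 lower (19.9%). At least 2-fold rises numbered 410 (2.58%) and falls of that size 101 (0.637%), and rises of at least 4-fold outnumbered falls by 125 to 7. The median difference over all genes was -0.02. Array medians lay between 6.77 and 6.84, and arrays of a group correlated at 0.993 to 0.997. Chemosensory receptor genes, a class taken as mostly silent here, served as background. Of 1244 measured, only the 162 that passed the filter on low values were used, which raises the cutoff. Their 95th percentile on each array was 6.82 to 7.08 in RAS cells and 6.82 to 7.02 in wild-type cells. Over all 1244 genes it was 6.16 to 6.35 and 6.21 to 6.29. A gene at background here may therefore still be expressed. A gene not above the cutoff of the 162 genes on any wild-type array has only a bound. The bound was taken from the RAS mean against the mean of the wild-type cutoffs and is written as "at least". Such a bound held for 95 of the 410 rises, and the corresponding bound in RAS cells for 15 of the 101 falls. Hras itself was not analysed here, so the arrays give no direct check of the transduced gene. In bulk RNA, fewer cells of a type and less RNA per cell cannot be told apart.

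**Figure D1:**
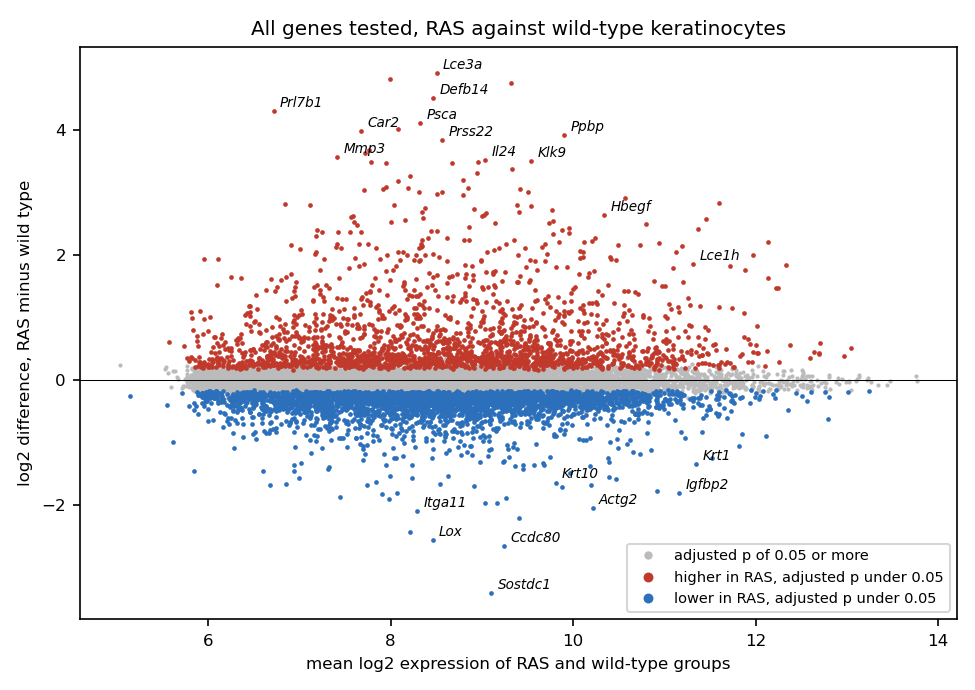
Each point is 1 of 15868 genes, with the mean log2 expression of the RAS and wild-type groups on the horizontal axis and the log2 difference, RAS minus wild type, on the vertical axis. Red and blue points had a limma adjusted p under 0.05, and rises of more than 4 log2 units have no counterpart among the falls.

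The cultures had the markers of keratinocytes in both groups. Of 17 keratinocyte markers measured, 2 were called higher and 3 lower, with a median of -0.04, and the split was 2 and 1 under centring on the chemosensory genes. Krt5 read 13.38, 13.52 and 13.52 in RAS cells, against 13.50, 13.52 and 13.43 in wild-type cells, and its groups overlapped. Krt14 likewise did not pass the test (-0.04). Among markers of other cells, 11 of 12 melanocyte markers were above background on every RAS and every wild-type array. The list had mean levels of 9.36 to 9.52 in RAS cells and 9.25 to 9.50 in wild-type cells, and 1 of them, the endothelin receptor gene Ednrb, was lower (-0.66). Of 17 fibroblast markers 9 were lower and 1 higher. Their mean level was 8.00 to 8.06 in RAS cells and 8.43 to 8.48 in wild-type cells. The 9 smooth muscle and pericyte markers, 6 of them lower, averaged 7.50 to 7.63 in RAS cells and 8.14 to 8.19 in wild-type cells. Of 12 leukocyte markers 7, and of 9 endothelial markers 8, were at background in both groups, including the pan-leukocyte gene Ptprc and the endothelial cadherin gene Cdh5. Of the leukocyte markers 2 were called higher, the lysosomal glycoprotein gene Cd68 (1.29 ± 0.11) and Cd14, which was at background in both groups. The 3 called lower, the lysozyme gene Lyz2 (bound -0.70), Tyrobp and Fcer1g, were at background in RAS cells. The part of such cells in the results was not tested.

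The 30 largest rises and the 30 largest falls were taken among called genes whose groups do not overlap, so the separation of their arrays was fixed by that choice. The rises included genes of the cornified envelope, of proteases, of cytokines and of the prolactin family. Mmp3, the matrix metalloprotease stromelysin, read 9.20, 9.16 and 9.23 in RAS cells, against 5.70, 5.67 and 5.52 in wild-type cells. The wild-type arrays lay below the background, so the rise was at least 4.81-fold. Il24, a cytokine of the interleukin 10 family, read 10.88, 10.70 and 10.81 in RAS cells, against 6.89, 7.51 and 7.42 in wild-type cells. The difference was 3.53 ± 0.13 log2 units (limma adjusted p = 1.62e-12). Klk9, a kallikrein protease, read 11.39, 11.06 and 11.43 in RAS cells, against 7.62, 7.81 and 7.94 in wild-type cells, a rise of 3.499 ± 0.11. Degs2, which makes the phytoceramides of the skin barrier, read 11.08, 10.79 and 11.16 in RAS cells, against 7.60, 7.59 and 7.72 in wild-type cells. Further down the 30 largest rises stood Spink7, a protease inhibitor (at least 2.60), Kcnn4, a calcium-activated potassium channel (at least 2.91), the DNase gene Dnase1l3 (at least 2.57) and the epidermal lipoxygenase gene Alox12b (3.06 ± 0.10).

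The falls were smaller. Sostdc1, which blocks BMP and Wnt ligands outside the cell, read 7.23, 7.64 and 7.32 in RAS cells, against 10.30, 11.07 and 11.06 in wild-type cells. No other gene fell by 8-fold or more. Lrrc15, a membrane protein gene of mesenchymal cells, was lower (-1.69 ± 0.08), as was Srpx2, a secreted protein gene (-1.64 ± 0.09). Igf1 read 6.90, 6.89 and 6.92 in RAS cells, against 8.26, 8.76 and 8.72 in wild-type cells. Dapl1, which fell to the background by a bound of -0.79, and the adipokine gene C1qtnf12 (-1.72) were also among the 30 largest falls. Lgr4, a receptor for R-spondins, closed that list at -1.54 ± 0.15.

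**Figure D2:**
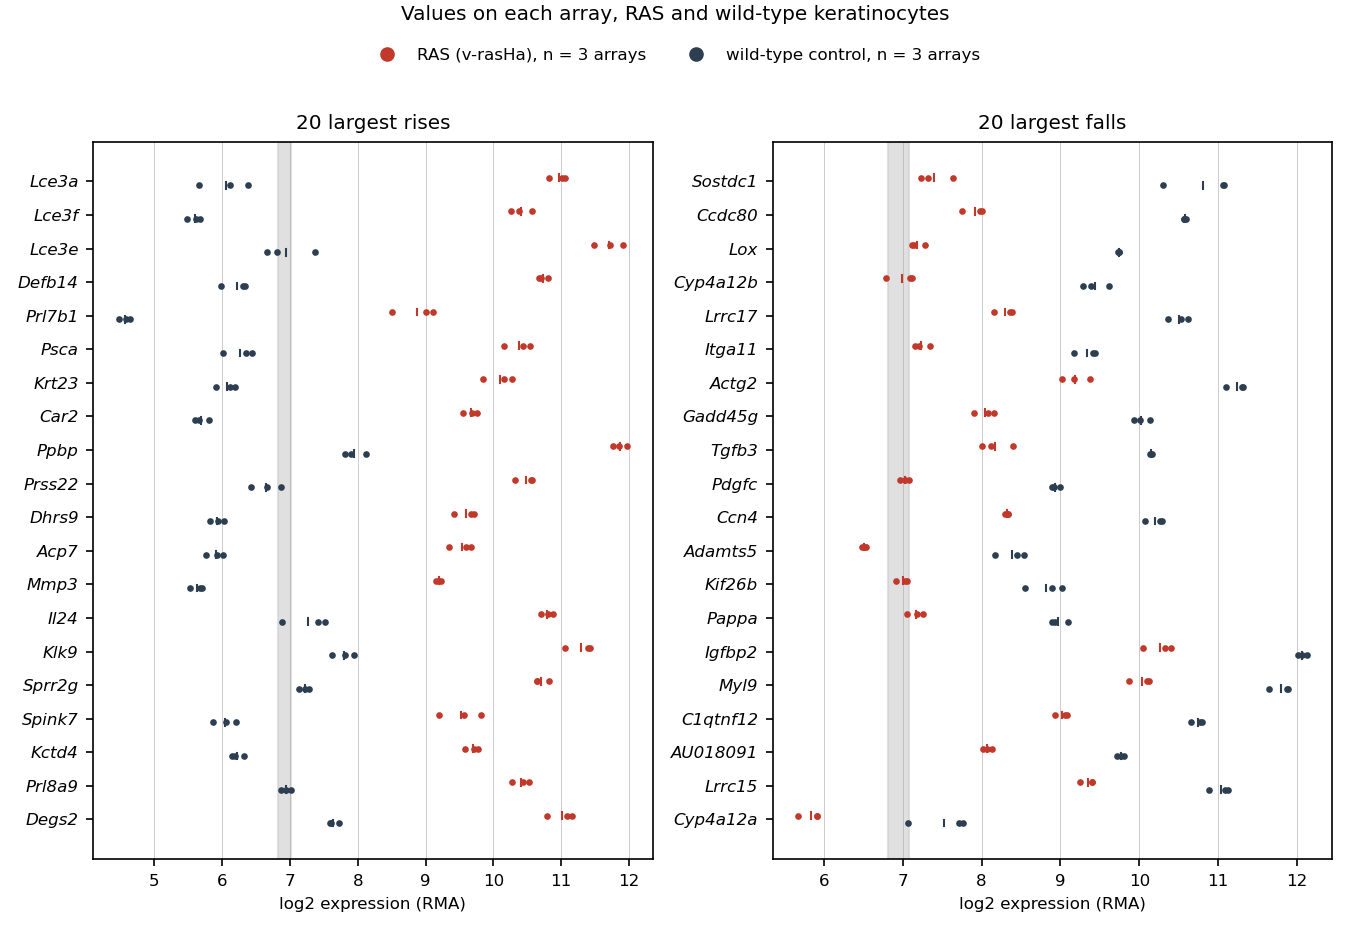
Values on each array of the 20 genes with the largest called rises (left) and falls (right), in log2 expression units, with RAS arrays in red above wild-type arrays in dark blue and a tick at each group mean (n = 3 arrays per group). The grey band is the range of the arrays' backgrounds in the lower group. Most genes on the left have wild-type arrays below or within the band, and Adamts5 and Cyp4a12a on the right have RAS arrays below it.

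Promoters were compared for the 10162 tested genes with exactly 1 promoter in the RefSeq table (GRCm38.p6), from 250 bases before to 50 bases after the start. The AP-1 motif TGANTCA, the site of Fos and Jun proteins, was searched on both strands. It was present in 5.60% of all these promoters, in 9.23% of those of genes called higher (115 of 1246) and in 79 of 1975 of those of genes called lower. Among rises of at least 2-fold the share was 17.4% (47 of 270), against 6 of 60 falls of that size. The ETS motif CGGAAGT was at 2.59% of the rises of at least 2-fold and in 0 of the 60 falls of that size, against 11.1% of all promoters. The TEAD motif GGAATG was at 15.9% of these rises, 16.7% of these falls and 12.3% of all. Of the 30 largest rises 18 had a listed promoter, and 7 of these held an AP-1 match, against 3 of the 16 listed promoters of the 30 largest falls. The 150-base windows that hold it in the rises follow, each written 5′ to 3′ on the gene's strand with the match in capitals, because they show the forms of the motif and its different distances from the start. These are Ppbp (chr5:90768268-90768417, plus strand), Dhrs9 (chr2:69380342-69380491, plus strand), Mmp3 (chr9:7445702-7445851, plus strand), Prl8a9 (chr13:27564577-27564726, minus strand), Tmprss11f (chr5:86632395-86632544, minus strand), Mmp10 (chr9:7502222-7502371, plus strand) and Sprr2f (chr3:92364937-92365086, plus strand).
Ppbp: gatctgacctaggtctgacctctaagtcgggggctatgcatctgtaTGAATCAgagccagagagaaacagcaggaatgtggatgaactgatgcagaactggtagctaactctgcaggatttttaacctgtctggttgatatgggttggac
Dhrs9: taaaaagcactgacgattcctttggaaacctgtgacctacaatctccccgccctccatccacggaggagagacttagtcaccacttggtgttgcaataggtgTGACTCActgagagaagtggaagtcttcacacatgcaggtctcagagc
Mmp3: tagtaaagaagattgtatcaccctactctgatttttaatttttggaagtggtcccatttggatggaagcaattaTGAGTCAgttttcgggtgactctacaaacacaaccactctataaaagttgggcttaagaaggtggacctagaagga
Prl8a9: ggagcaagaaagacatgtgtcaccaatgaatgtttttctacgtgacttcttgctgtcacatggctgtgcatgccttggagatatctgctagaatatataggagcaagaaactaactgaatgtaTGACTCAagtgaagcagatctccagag
Tmprss11f: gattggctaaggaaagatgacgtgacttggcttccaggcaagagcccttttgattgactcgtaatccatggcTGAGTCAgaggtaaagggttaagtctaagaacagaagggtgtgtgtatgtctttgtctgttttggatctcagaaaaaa
Mmp10: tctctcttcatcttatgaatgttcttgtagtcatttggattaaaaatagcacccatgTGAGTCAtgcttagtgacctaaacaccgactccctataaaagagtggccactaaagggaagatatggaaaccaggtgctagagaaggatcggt
Sprr2f: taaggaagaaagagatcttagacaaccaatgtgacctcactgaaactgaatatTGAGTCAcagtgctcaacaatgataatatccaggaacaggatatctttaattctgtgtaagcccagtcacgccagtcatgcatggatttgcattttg
The match began 46 bases before the start in Mmp3, 48 in Tmprss11f and 63 in Mmp10. In Dhrs9 it began 18 bases before the start, in Sprr2f 197 and in Ppbp 204. In Prl8a9 it began 4 bases after the start. A match describes letters only and does not show that a factor bound there.

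**Figure D3:**
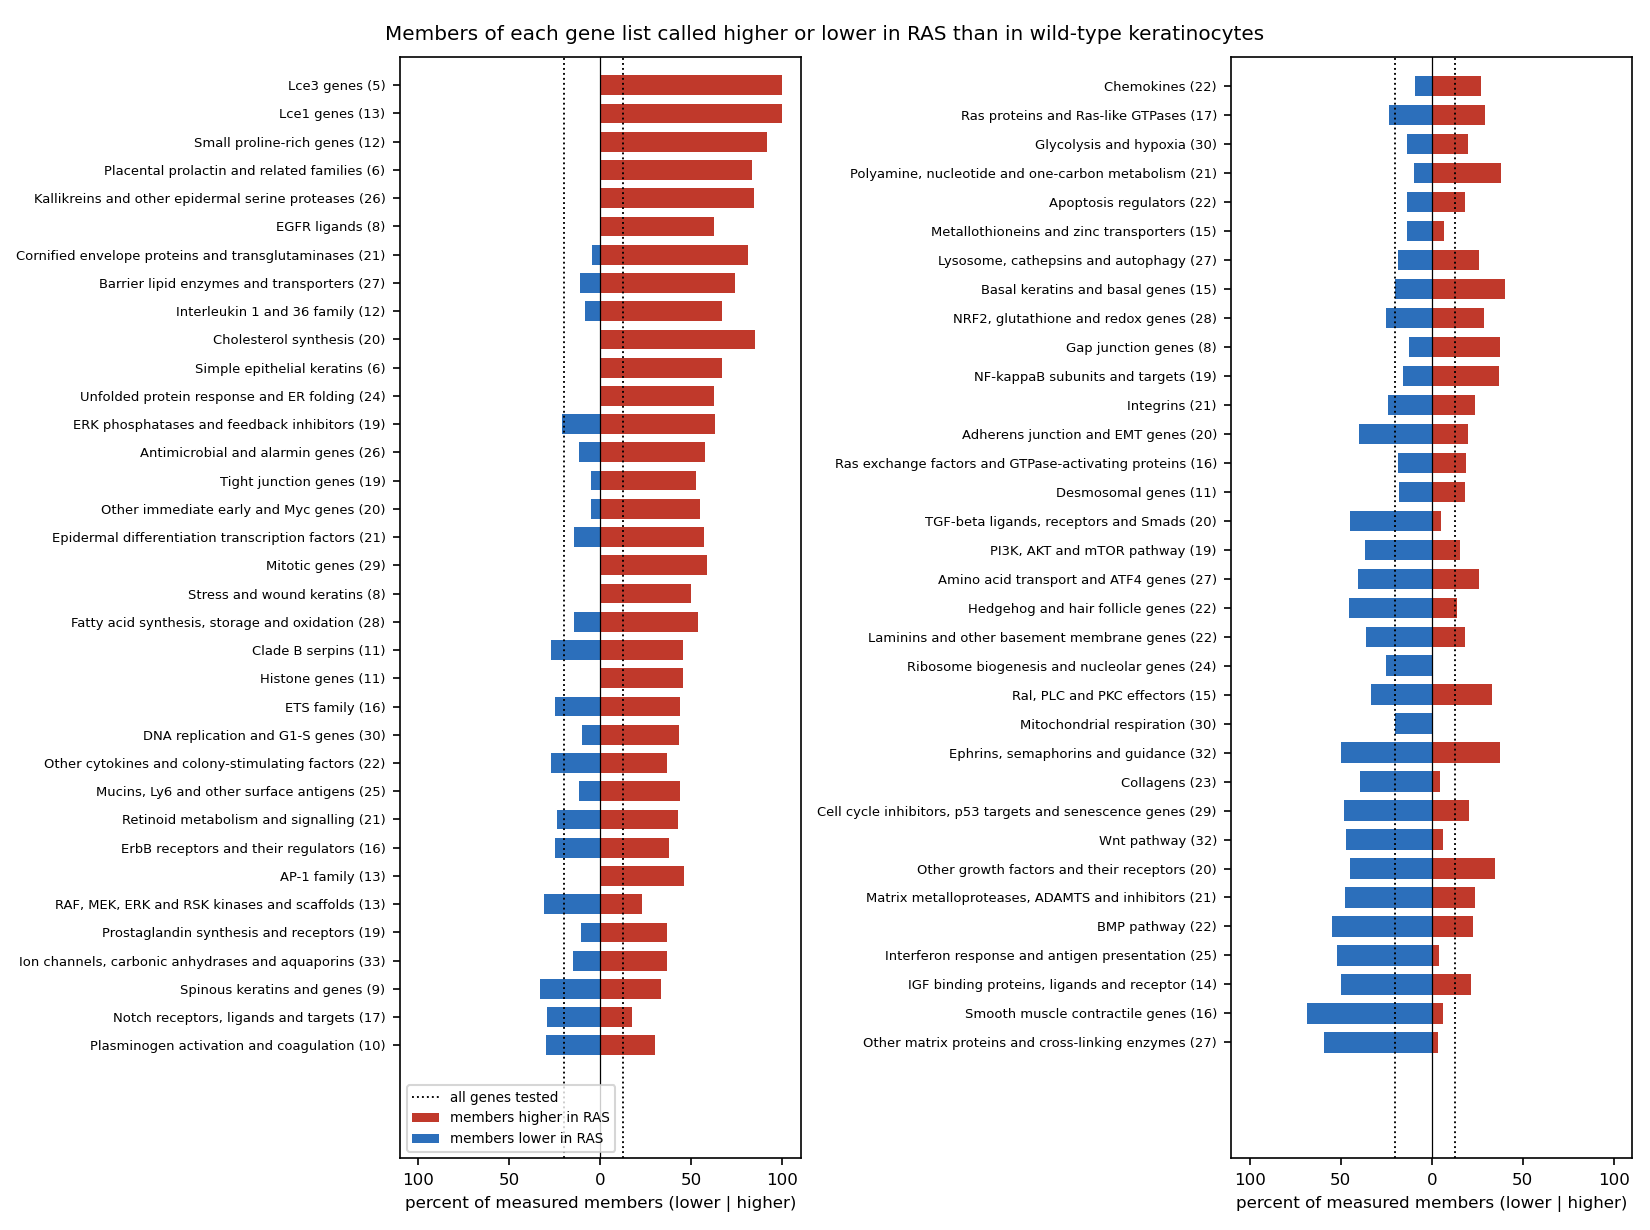
Bars give the percent of each gene list's measured members (number in brackets) that were called higher (red, right) or lower (blue, left) in RAS than in wild-type cells. Dotted lines mark the share over all genes tested, 12.6% higher and 19.9% lower, and lists run by median difference from the Lce3 genes to the other matrix proteins. In the Lce3 and placental prolactin lists, genes silent in wild-type cells could pass the filter through the groups where they are high.

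Genes of the RAS signalling chain were called in both directions, with shares of 52.9% of the RAS proteins and RAS-like GTPases, 37.5% of their regulators, 53.8% of the kinases and 52.6% of the PI3K list, against 32.5% of all genes. Of 17 genes of RAS proteins and RAS-like GTPases, 5 were higher and 4 lower, and none by 2-fold. Under centring on the chemosensory genes this split was 2 and 4, and between 1 and 3 rose without RAS array 2, RAS array 3, wild-type array 2 or wild-type array 3. Nras did not pass the test (0.03), and Rras was lower (-0.37 ± 0.07). Among 16 exchange factors and GTPase-activating proteins, which switch RAS on and off, 3 rose and 3 fell. Rasa4, a calcium-sensitive GTPase-activating protein, was the largest rise at 1.08 ± 0.07, and the exchange factor gene Rasgrp1 the largest fall at -0.75 ± 0.10. The 13 RAF, MEK, ERK and RSK genes gave 3 rises, led by the scaffold gene Ksr1 (0.51 ± 0.08), and 4 falls, which became 2 under chemosensory centring and without RAS array 1 or wild-type array 3. In the PI3K, AKT and mTOR list 3 of 19 rose and 7 fell, among them the insulin receptor substrate gene Irs1 (-0.63 ± 0.07) and the kinase gene Sgk1 (-0.56 ± 0.10).

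Negative regulators of ERK showed larger differences. Of 19 ERK phosphatases and feedback inhibitors, 12 were called higher and 4 lower, with a median of 0.33, or 0.50 over the members above background in either group with bounds in place of fitted differences. This second median is called the bounded median here. Dusp5, a nuclear ERK phosphatase, read 10.83, 10.58 and 10.75 in RAS cells, against 8.48, 8.59 and 8.72 in wild-type cells. The groups did not overlap, and the difference was 2.12 ± 0.08 (limma adjusted p = 1.49e-12). Dusp4 (1.82 ± 0.08) and Dusp6 (1.24 ± 0.10) also rose, whereas Dusp8, which acts mainly on JNK and p38, fell by 0.89 log2 units. Spry1 fell by less (-0.28). Without wild-type array 3 the falls numbered 2.

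Of 8 EGFR ligand genes measured, 5 rose and none fell, and the receptor gene Egfr was slightly lower (-0.36 ± 0.07). Among 16 ErbB receptors and regulators, 6 rose and 4 fell. Timp3, an inhibitor of the protease that sheds EGFR ligands, fell to 10.74, 11.02 and 10.94 in RAS cells, against 12.14, 12.12 and 12.18 in wild-type cells. All its RAS arrays were lower than all wild-type arrays (-1.25 ± 0.08). Lrig3 fell too (-0.85), while Lrig1 rose (0.50), both being membrane proteins that modulate receptor tyrosine kinases. Of 20 other growth factor and receptor genes, 7 rose and 9 fell. The carrier gene Fgfbp1 (1.26 ± 0.07) was the largest rise, and Pdgfc (-1.91 ± 0.07), Fgf2 (-1.19 ± 0.09) and the receptor gene Pdgfrb (-1.07 ± 0.07) were the largest falls.

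The AP-1, ETS and other immediate early and Myc lists each held more rises than falls. Of 13 AP-1 genes 6 rose and none fell. Jun itself differed by 0.08 and did not pass the test. Fos rose by 1.32 ± 0.07 and Maff by at least 0.75. Of 16 ETS genes 7 rose and 4 fell. Ehf, an epithelial ETS factor, read 10.83, 10.70 and 10.96 in RAS cells, against 8.79, 9.13 and 9.17 in wild-type cells. Its relative Elf3 was at background in wild-type cells and rose by at least 1.63. Mxd1, which competes with Myc for its partner Max and is linked with terminal differentiation, read 11.03, 10.89 and 11.05 in RAS cells, against 8.36, 8.53 and 8.53 in wild-type cells, a rise of 2.52 ± 0.08 (limma adjusted p = 2.40e-13). Myc was lower (-0.27 ± 0.07). In all, 11 of 20 other immediate early and Myc genes rose, with a median of 0.29, and Myc was the only fall.

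Late envelope genes of the epidermal differentiation complex rose in most Lce1 and Sprr members measured. All 13 Lce1 genes measured were called higher, with a median of 2.17. Of 6 Lce3 genes 5 passed the filter on low values, with a median of 4.76. Lce3 genes silent in wild-type cells could pass it through the groups where they are high, so no count of their rises is given. Only 1 of the 5 was above background on every wild-type array, and the bounded median was 3.47. Lce1i, which encodes a late cornified envelope protein, read 10.19, 10.37 and 10.58 in RAS cells, against 7.33, 7.19 and 7.41 in wild-type cells. The difference was 3.07 ± 0.14 log2 units. Of 12 Sprr genes, which encode small proline-rich envelope proteins, 11 rose, from 0.38 in Sprr1a to 3.48 in Sprr2g, and Sprr2b did not pass the test (-0.08). Within the Lce and Sprr2 families the sequences are much alike, and 1 member's probes may catch another. Of 21 other envelope proteins and transglutaminases, 17 rose and 1 fell, with a median of 0.95. The rises were led by repetin (Rptn, 2.05 ± 0.16), the cross-linking enzyme gene Tgm3 (1.91 ± 0.11) and loricrin (Lor, 1.90 ± 0.15). The fall was that of the galectin gene Lgals7 (-0.41).

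**Figure D4:**
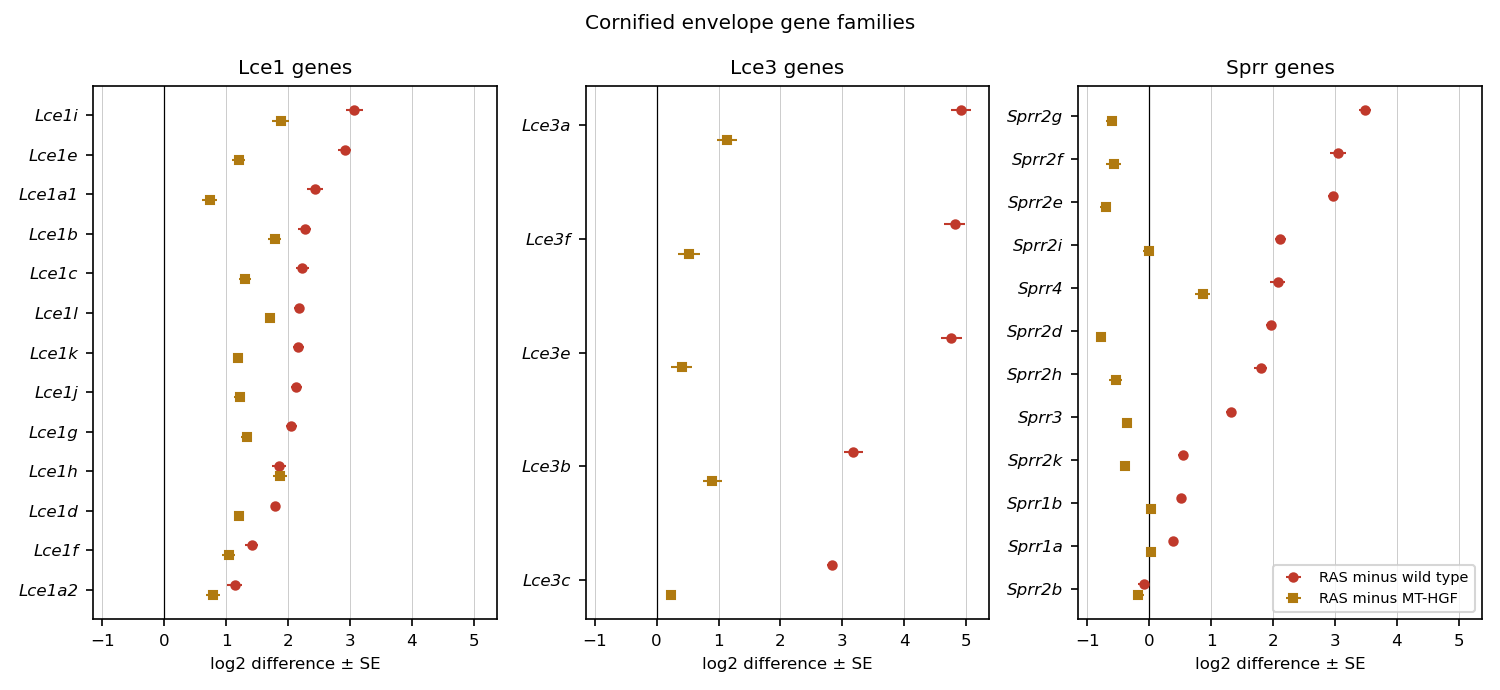
Log2 differences with SE bars for each measured Lce1, Lce3 and Sprr gene, RAS minus wild type (red circles) and RAS minus MT-HGF (ochre squares), n = 3 arrays per group. All Lce1 squares lie right of 0, while 7 of the 12 Sprr genes were called lower in RAS than in MT-HGF cells.

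Lipid barrier and protease genes rose alongside. Of 27 barrier lipid genes 20 rose and 3 fell, with a median of 0.86 and a bounded median of 1.08. Pnpla1, needed for the acylceramides of the barrier, read 11.05, 11.09 and 11.25 in RAS cells, against 8.72, 8.77 and 8.86 in wild-type cells, with no overlap. Abcg1, a sterol exporter (2.00 ± 0.07), and Aloxe3, the lipoxygenase that acts after Alox12b (1.95 ± 0.07), rose as well, whereas the serine palmitoyltransferase gene Sptlc3 fell by 0.90 log2 units. Of 26 genes of kallikreins, other epidermal serine proteases and their inhibitors, 22 rose and none fell, with a median of 1.32 and a bounded median of 1.10. The inhibitor genes in this list are Spink5, Spint1 and Spint2. Klk5, whose protease starts the kallikrein cascade in the cornified layer, rose by 1.49 and Klk6 by 2.499 ± 0.10. Tmprss11f, whose promoter window is shown above, read 10.58, 10.56 and 10.66 in RAS cells, against 7.04, 7.35 and 7.47 in wild-type cells. Among 11 clade B serpins, inhibitors of proteases inside cells, 5 rose and 3 fell, with Serpinb11 at least 1.41 higher and Serpinb10 lower (-0.70 ± 0.11).

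Regulators of differentiation did not move as a block. Of 21 epidermal differentiation factors 12 rose and 3 fell, with a median of 0.27. Prdm1, the repressor Blimp1 that acts in the granular layer, read 10.74, 10.65 and 10.86 in RAS cells, against 7.98, 8.11 and 8.10 in wild-type cells. The difference of 2.69 ± 0.08 was the largest of this list. Hopx (1.92 ± 0.10), the grainyhead gene Grhl3 (1.31 ± 0.06) and Ovol1 (0.92 ± 0.07) followed. The falls were Pou2f3, which fell to the background (bound -0.81), Pou3f1 (-0.47) and Trp63 (-0.20), a central regulator of basal cells. Trp63 missed the threshold without RAS array 1, RAS array 2 or wild-type array 2, at limma adjusted p values of 0.0577, 0.0594 and 0.0772, and with chemosensory centring at 0.0839. In the Notch list, whose signals drive the spinous switch, 3 of 17 rose and 5 fell. Notch1 read 10.99, 10.99 and 11.002 in RAS cells, against 11.83, 11.78 and 11.86 in wild-type cells. Its groups did not overlap, and the ligand gene Jag1 was lower by the same amount (-0.83 ± 0.08). Nrarp, a Notch target and feedback inhibitor, was nonetheless higher (1.19 ± 0.08).

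Keratin genes went in both directions. Of 9 spinous genes 3 rose, led by suprabasin (Sbsn, 1.08 ± 0.07) and the desmoglein gene Dsg1b (0.97 ± 0.09), and 3 fell. Krt1 and Krt10, the spinous keratins, were lower (-1.34 ± 0.13 and -1.64 ± 0.13). Of 8 stress and wound keratins 4 rose, and Krt75, a keratin of the hair follicle companion layer, read 10.08, 9.72 and 10.20 in RAS cells, against 7.16, 7.01 and 6.89 in wild-type cells. The rise was 2.98 ± 0.10, and Krt80 rose by 1.19 ± 0.06. The other rises were those of Krt23, the largest of the list by fitted difference, and the wound keratin gene Krt6b. Krt6a (-0.14) and Krt16 (0.15), also used as markers of wounding, did not pass the test. Of 6 keratins of simple epithelia 4 rose, led by Krt18 at 1.54 ± 0.11.

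Adhesion genes changed selectively. Of 21 integrins 5 rose and 5 fell. Itga2, the collagen-binding alpha subunit of keratinocytes, read 11.41, 11.23 and 11.32 in RAS cells, against 9.17, 9.01 and 9.08 in wild-type cells. The groups lay more than 2 log2 units apart (2.23 ± 0.07). Itga3 (1.15 ± 0.07) and Itga6 (0.83 ± 0.09), which bind laminin, also rose, while their partner genes Itgb1 (0.13) and Itgb4 (0.01) did not pass the test. Itgb6, whose protein activates latent TGF-beta, fell to 8.71, 9.02 and 8.92 in RAS cells, against 10.12, 10.30 and 10.33 in wild-type cells. Itga11 (-2.10 ± 0.08), Itga8 (-1.54 ± 0.10) and Itgb5 (-1.07 ± 0.08) were lower too. Lamb3 and Lama3, chains of the laminin that anchors the epidermis, rose by 1.04 and 0.42.

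Junction genes changed in part. The desmosomal cadherin gene Dsc2 read 11.07, 10.94 and 11.13 in RAS cells, against 8.46, 8.46 and 8.61 in wild-type cells. There was 1 other rise and 2 falls among 11 desmosomal genes (36.4% called, against 32.5% of all genes). Of 19 tight junction genes 10 rose and 1 fell, with Pard6b, a polarity gene, at 1.23 ± 0.07. In the gap junction list, Gjb6 read 9.34, 9.33 and 9.65 in RAS cells, against 6.64, 6.62 and 6.67 in wild-type cells. The wild-type arrays were at the background used here, so its rise was at least 2.51. They lay above the background over all measured chemosensory genes. Its common partner connexin gene Gjb2 rose by 1.42 ± 0.07. Among adherens junction and mesenchymal transition genes 4 of 20 rose and 8 fell. Epcam rose by 1.68 ± 0.09 and Snai3 by at least 1.81, while Cdh11 (-1.03 ± 0.07), Fn1 (-0.92 ± 0.06) and Zeb1 (-0.60 ± 0.07) fell.

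**Figure D5:**
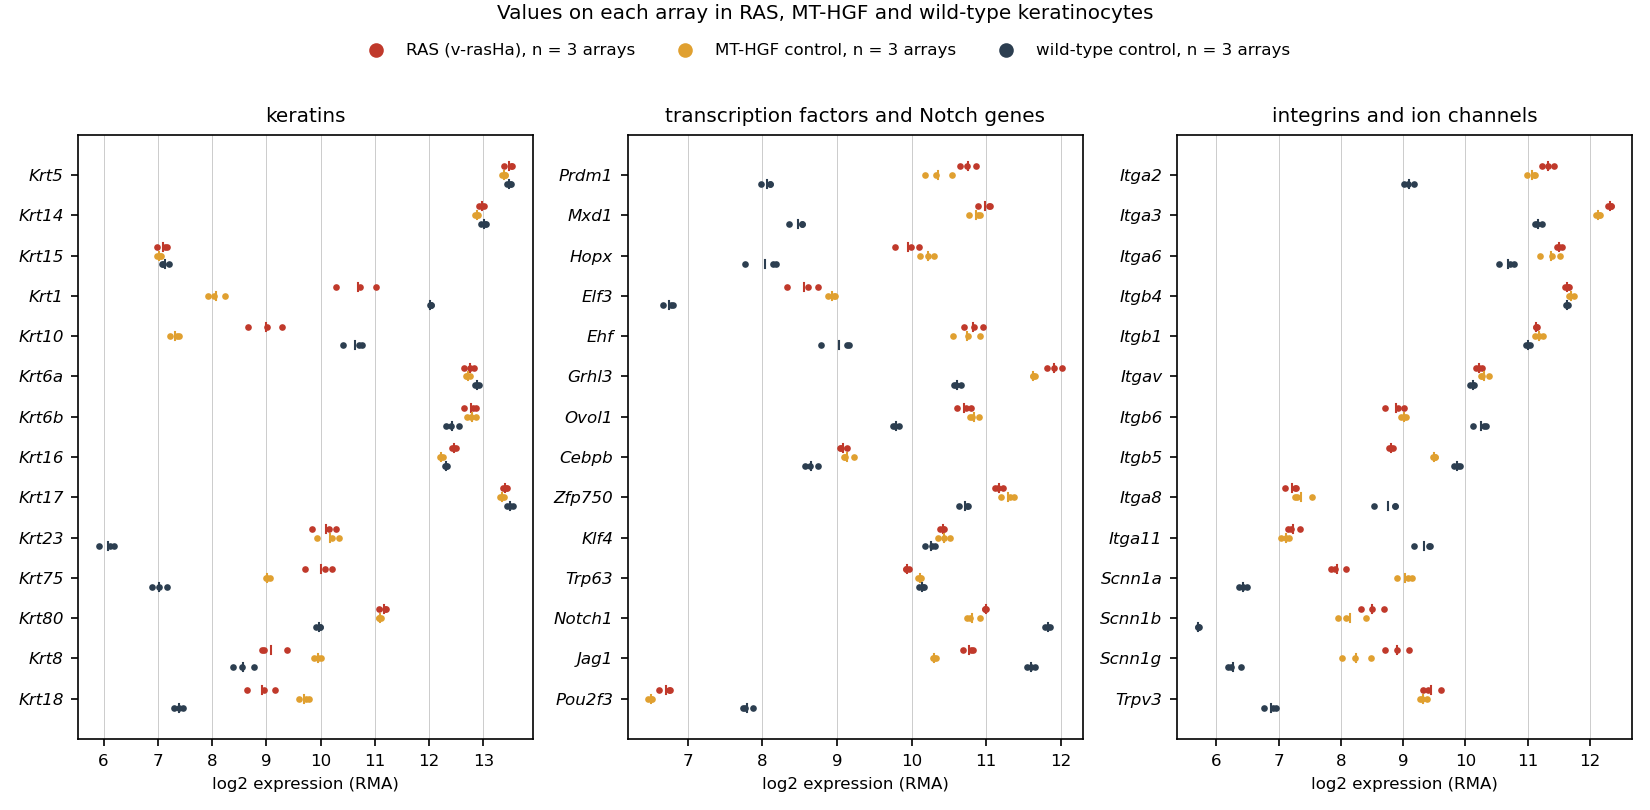
Values on each array in log2 expression units of selected keratins, transcription factors with Notch genes, and integrins with ion channels, in RAS (red), MT-HGF (ochre) and wild-type (dark blue) cells, with a tick at each mean (n = 3 arrays per group). Krt1 and Krt10 in RAS cells lie between the other groups, and Scnn1b and Scnn1g are at the low end in wild-type cells.

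Ion transport and retinoid genes held several of the larger rises. All 3 subunit genes of the epithelial sodium channel rose. Scnn1b read 8.51, 8.32 and 8.70 in RAS cells, against 5.73, 5.71 and 5.70 in wild-type cells. The wild-type arrays were at background, so the bound was 1.58, and it was 1.97 for Scnn1g and 1.02 for Scnn1a. Trpv3, a heat-sensitive calcium channel of keratinocytes, rose by 2.56 ± 0.08, and the carbonic anhydrase gene Car2 by at least 2.74, whereas Car12 fell by 0.62 log2 units. In all 12 of 33 channel, carbonic anhydrase and aquaporin genes rose and 5 fell. Among 21 retinoid genes 9 rose and 5 fell. The largest rises were those of enzymes and carriers. They were led by Dhrs9, a retinol dehydrogenase (at least 2.67), and Crabp2, which carries retinoic acid to the nucleus (2.21 ± 0.08). Aldh1a3, which makes retinoic acid (1.91 ± 0.08), and Rdh1 (1.28 ± 0.10) followed. The receptor genes Rara (-0.51), Rarg (-0.31) and Rxra (-0.37) were among the falls, as was the enzyme gene Cyp26b1.

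Inflammatory lists held more rises than falls, and the interferon list more falls than rises. Of 12 genes of the interleukin 1 and 36 family, 8 rose and 1 fell, with a median of 0.75 and a bounded median of 0.82. Il1f8, which encodes IL-36 beta, read 9.68, 9.78 and 9.99 in RAS cells, against 6.498, 6.91 and 6.999 in wild-type cells. The rise was 3.01 ± 0.16, and Il1f6 (at least 1.94), Il1f9 (2.05 ± 0.07) and the antagonist gene Il1f5 (1.53 ± 0.08) rose with it. Il18 was the fall (-0.50). Of 22 chemokines 6 rose and 2 fell (36.4% called, against 32.5% of all genes), and 11 were at background in both groups. The rises included the neutrophil attractants Ppbp (3.92 ± 0.10) and Cxcl1 (1.26 ± 0.09). Among 22 other cytokine genes, 8 rose and 6 fell, with Tslp (-0.99 ± 0.08) and Csf1 (-0.86 ± 0.09) lower. Of 26 antimicrobial and alarmin genes 15 rose and 3 fell. S100a7a, an alarmin of the S100 family, read 9.89, 9.46 and 9.71 in RAS cells, against 6.89, 7.05 and 7.05 in wild-type cells, and all RAS arrays lay above all wild-type arrays. S100a4, linked to motile mesenchymal cells, fell (-0.98 ± 0.10), as did Lyz2 and the defensin gene Defb1. In the prostaglandin list 7 of 19 rose, led by the phospholipase gene Pla2g4e (2.44 ± 0.10), and 2 fell. Of 25 interferon response and antigen presentation genes, 13 fell and 1 rose, with a median of -0.25, and the peptide transporter gene Tap1 was the largest fall (-0.72 ± 0.09).

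In the matrix and contractile lists more members fell than rose in RAS cells. Of 27 other matrix proteins and cross-linking enzymes 16 fell and 1, the tenascin gene Tnc, rose (0.51). Lox, the lysyl oxidase that cross-links collagen, read 7.14, 7.12 and 7.29 in RAS cells, against 9.73, 9.75 and 9.74 in wild-type cells. The wild-type arrays lay within a narrow range and more than 2 log2 units above the RAS arrays. The matricellular genes Ccn4 (-1.89 ± 0.07) and Ccn2 (-1.31 ± 0.08) and the proteoglycan gene Bgn (-1.55 ± 0.10) fell too. Of 22 laminins and other basement membrane genes 8 fell and 4 rose. Of 23 collagens 9 fell, 1 rose and 13 were not called, with Col1a1 at -1.37 ± 0.08 and Col1a2 at -1.36 ± 0.07. Of 16 smooth muscle contractile genes 11 fell and 1 rose, with Myl9 at -1.77 ± 0.10 and Tagln at -1.49 ± 0.10. The fibroblast and the smooth muscle markers given above moved in the same direction, with the surface glycoprotein gene Thy1 (-1.21 ± 0.08) and the growth factor receptor gene Pdgfrb lower. Other fibroblast markers did not pass the test, among them Dcn (0.08) and Col3a1 (-0.12). The part of these cells in the matrix result was not tested.

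Matrix-degrading enzymes went both ways. Of 21 metalloprotease, ADAMTS and inhibitor genes 5 rose and 10 fell. The rises were the collagenase and stromelysin genes, with Mmp10 at least 2.79, Mmp3 at least 2.27 and Mmp13 at least 0.77 higher. Adamts1, a protease of proteoglycans, fell to 8.47, 8.65 and 8.65 in RAS cells, against 9.81, 9.91 and 9.95 in wild-type cells. The fall of -1.30 ± 0.08 was accompanied by that of Timp3 and by Adamts5, which fell to the background (bound -1.40). In the plasminogen list, the urokinase gene Plau (1.05 ± 0.07) and its receptor gene Plaur (1.27 ± 0.09) rose, and the thrombin receptor gene F2r fell (-1.04 ± 0.07).

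Of 22 BMP genes 12 fell and 5 rose. The targets Id1 (-0.91 ± 0.07), Id3 (-0.70 ± 0.09) and Id2 (-0.67 ± 0.12) were among the falls. Grem1, a secreted BMP antagonist, read 9.77, 9.71 and 9.73 in RAS cells, against 7.90, 7.91 and 7.87 in wild-type cells, the largest rise in this list. Of 32 Wnt genes 15 fell and 2 rose. The ligand gene Wnt3 read 7.37, 7.47 and 7.59 in RAS cells, against 8.51, 8.58 and 8.61 in wild-type cells. Its groups did not overlap, and the target gene Axin2 was lower (-0.57 ± 0.08). The rises were Wnt7a (1.38 ± 0.09) and the antagonist gene Sfrp1 (1.15 ± 0.14). In the TGF-beta list 9 of 20 fell and 1 rose, with Tgfb3 at -1.97 ± 0.10, and 10 of 22 Hedgehog and hair follicle genes fell and 3 rose, with Hoxc13 at -1.36 ± 0.14.

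Among 32 ephrin, semaphorin and other guidance genes, 12 rose and 16 fell. Sema7a, a membrane-anchored semaphorin that binds integrins, read 10.15, 9.88 and 10.17 in RAS cells, against 7.32, 7.03 and 6.81 in wild-type cells. The groups lay about 3 log2 units apart (3.01 ± 0.12). Epha2, an ephrin receptor of epithelia, rose by 1.11 ± 0.08, and Ephb6 (-1.10 ± 0.08) and Slit3 (-1.22 ± 0.08) fell. The insulin-like growth factor list had 7 falls and 3 rises among 14 genes. The binding protein gene Igfbp3 rose (2.04 ± 0.09), while Igfbp2 (-1.81 ± 0.08), Igfbp5 (-1.58 ± 0.09) and Pappa (-1.81 ± 0.08), whose protease frees IGF from binding proteins, were lower.

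Of 29 mitotic genes 17 rose and none fell, with a median of 0.27, and the largest rise was that of the spindle checkpoint kinase gene Ttk (0.66 ± 0.09). Of 30 replication and G1-S genes 13 rose and 3 fell, with cyclin E1 (Ccne1) at 0.47 ± 0.09 and cyclin D2 (Ccnd2) at -0.48 ± 0.06. In the list of cell cycle inhibitors, p53 targets and senescence genes, 14 of 29 fell and 6 rose. Gadd45g, a stress gene, read 7.90, 8.08 and 8.16 in RAS cells, against 9.93, 10.004 and 10.13 in wild-type cells, and the inhibitor gene Cdkn2b was lower (-0.56 ± 0.08), whereas Cdkn2c rose by 0.78 ± 0.10. Among 22 apoptosis regulators 4 rose and 3 fell (31.8% called, against 32.5% of all genes). This split became 4 and 5 when quantile normalization was repeated over the 6 arrays. The rises were led by Bcl2l15 (at least 1.32) and by Cflar, an inhibitor of caspase activation by death receptors (1.06 ± 0.11).

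Of 20 cholesterol synthesis genes 17 rose, and of 24 genes of the unfolded protein response and ER folding 15 rose, with none lower in either list. Among 28 fatty acid genes 15 rose and 4 fell. Lpin2, a phosphatidate phosphatase of triglyceride synthesis, read 10.36, 10.12 and 10.45 in RAS cells, against 7.56, 7.72 and 7.79 in wild-type cells, a rise of 2.62 ± 0.09. Cpt1a, the entry enzyme of mitochondrial fatty acid oxidation, was lower (-0.69 ± 0.08). In the glycolysis and hypoxia list 6 of 30 rose and 4 fell (33.3% called, against 32.5% of all genes). Hk2, a hexokinase, read 10.14, 10.08 and 10.26 in RAS cells, against 8.64, 8.58 and 8.59 in wild-type cells, and the glycolytic regulator gene Pfkfb4 rose by at least 1.97. The 30 mitochondrial respiration genes gave 6 falls (20%, against 19.9% of all genes) and no rise, with 3 falls without wild-type array 3. The 24 ribosome biogenesis genes gave 6 falls (25%) and no rise.

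Podoplanin (Pdpn), a mucin-type surface glycoprotein, read 9.54, 9.09 and 9.22 in RAS cells, against 7.21, 7.26 and 7.37 in wild-type cells. Its groups did not overlap. Psca rose by at least 3.45 and Lypd5 by 2.16 ± 0.07, and the complement inhibitor gene Cd59a fell by 1.24 log2 units. Of 25 mucin, Ly6 and other surface antigen genes 11 rose and 3 fell. Of 27 prolactin-related and other placental genes, 6 passed the filter on low values. A gene silent in wild-type cells could pass it through the groups where it is high, so no count of rises is given. Prl8a9 read 10.43, 10.28 and 10.53 in RAS cells, against 6.94, 7.01 and 6.86 in wild-type cells. Prl7b1 rose by at least 1.94. Prolactin genes are close in sequence, so their probes may not be specific.

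Set against MT-HGF keratinocytes, RAS cells had 2002 genes higher (12.6%) and 2129 lower (13.4%) at a limma adjusted p under 0.05, of 15868 tested, with 70 (0.441%) and 89 (0.561%) at least 2-fold higher and lower. When arrays were centred on the chemosensory genes these counts were 833 and 2548. The comparison shares the RAS arrays with the one against wild type, so the values are given side by side and not combined. Krt1 read 10.29, 11.02 and 10.73 in RAS cells, 7.93, 8.04 and 8.23 in MT-HGF cells and 12.03, 12.01 and 12.04 in wild-type cells. It was highest in wild-type cells, lowest in MT-HGF cells and in between in RAS cells, 2.61 ± 0.13 log2 units above MT-HGF. Igfbp2 read 10.05, 10.40 and 10.33 in RAS cells, 7.64, 7.63 and 7.76 in MT-HGF cells and 12.02, 12.06 and 12.12 in wild-type cells, in the same order. Serpinb12, an epithelial serpin, read 7.49, 7.61 and 7.93 in RAS cells, 5.32, 5.25 and 5.57 in MT-HGF cells and 5.79, 6.25 and 6.05 in wild-type cells. Its arrays lay above the background in RAS cells and not in the other groups.

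In the cornified envelope families the counts ran in different directions. All 13 Lce1 genes were higher in RAS than in MT-HGF cells, with a median of 1.22, against a median of 0.02 over all genes. Lce1h read 12.27, 12.19 and 12.28 in RAS cells, 10.19, 10.25 and 10.67 in MT-HGF cells and 10.33, 10.34 and 10.49 in wild-type cells. The RAS arrays lay above those of both other groups, which were close together. Of 12 Sprr genes 1 was higher and 7 lower in RAS cells, with a median of -0.37. Mmp3 (1.98 ± 0.11), Mmp10 (1.73 ± 0.08) and Car2 (1.68 ± 0.10) were also higher in RAS than in MT-HGF cells. Of the 19 ERK phosphatases and feedback inhibitors 11 were higher and 1 was lower in RAS cells, including Dusp4 (0.65 ± 0.08) and Dusp5 (0.53 ± 0.08). Of 24 ribosome biogenesis genes 16 were higher and none lower. Under chemosensory centring the higher members numbered 7 and 11 in these lists.

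Several lists had more members lower than higher in RAS cells. The lower members were 18 of 20 cholesterol synthesis genes, 22 of 27 amino acid transport and ATF4 genes, 17 of 30 glycolysis and hypoxia genes and 16 of 29 mitotic genes, with 0, 0, 2 and 0 higher. The prolyl hydroxylase gene Egln3 read 6.998, 7.13 and 7.21 in RAS cells, against 9.59, 9.46 and 9.93 in MT-HGF cells, the largest difference after the transgene's own Hgf, which lay at the background in RAS cells. The lactate exporter gene Slc16a3 (-1.85 ± 0.13) and the amino acid transporter gene Slc6a14 (-1.70 ± 0.13) were lower in RAS cells, as was the chemokine gene Cxcl5 (-1.91 ± 0.13). The 12 melanocyte markers, of which 9 were higher in RAS than in MT-HGF cells (median 0.42), and the 17 fibroblast markers, of which 11 were lower, moved with this comparison (6 of the melanocyte markers under chemosensory centring), and their part in it was not tested.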

How the data were processed

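The data came from 12 single-sample microarrays of cultured mouse keratinocyte RNA, 3 per group. The deposited values are log2 expression values per transcript cluster, made by the authors with RMA according to the submitters' processing notes. The sources used here give neither the RMA version nor whether 1 run covered all arrays, and no scanner files were used.

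The deposited file held 35511 clusters, 21789 with a single gene symbol in the platform annotation, 1621 with several and 12101 not listed there. A cluster was kept where 3 or more of the 12 arrays read it above their own 30th percentile. The cluster with the highest mean stood for each of the 815 genes with several, which left 15868 genes. RMA understates differences of genes near the background. A group-means model over all 12 arrays was fitted with limma 3.58.1 in R 4.3.3 (version 1.17.8 of data.table), with default eBayes settings and two-sided p-values adjusted by Benjamini-Hochberg over all genes. All 4 groups were fitted together so that they share 1 estimate of the spread. Called means an adjusted p under 0.05. Arrays have no read depth, and 3 arrays per group limit the precision. On simulated data of this size, 20%, 88% and 100% of genes changed by 0.25, 0.5 and 1 log2 units were recovered in RAS against wild type. There, 50 genes were changed at each size, with independent noise, against 5158 genes called in the data. The adjusted p depends on the share of changed genes, so these rates need not hold for the real test.

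The members and the 77 gene lists (1571 names, 1392 measured) were chosen with earlier results of these data known. Named genes are the 30 largest called rises and falls whose arrays do not overlap, the 15 largest in each direction against MT-HGF, and for each list its first 2 measured members and up to 5 called members with the largest rise and fall. Jun, Itgb1, Itgb4, Krt16, Col3a1, Sprr2b and Scnn1a were added after their values were seen, as were some further list members in the plots. Of the lists 1 is not reported here. Promoters came from RefSeq (GRCm38.p6). The alternatives tried were other filters, cluster choices, scalings, variance models, sets of arrays, a replicate block and each array left out.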

Additional observations from a re-analysis of the deposited data

Results flagged for a closer look

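Transcript clusters outside the gene tests also differed between RAS and wild-type cells, when all kept clusters were fitted together in limma. Of 7462 clusters with no listed gene 373 were higher and 330 lower, 30 and 5 of them by at least 2-fold. This was 9.42% of them, against 27.8% of the clusters with a single symbol in the same fit. Of 1100 clusters with several gene symbols 68 were higher and 105 lower (15.7%), 11 and 6 of them by at least 2-fold. They were picked out because they lie outside the main measurement and no gene is named for them here. No group held enough arrays for the test of single arrays that stand apart.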

How the results depend on the processing

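In RAS against wild type, the 2004 higher and 3154 lower genes became 3100 and 4996 with array weights, whose estimation in limma stopped before it converged, and stayed within 1.5 times under every other setting run. With the replicate number as a block they were 2185 and 3426. Leaving out single arrays gave 1747 to 1921 higher and 2347 to 3347 lower, and 389 to 429 and 92 to 122 at 2-fold or more. No called gene turned into an opposite call under any setting, and 4017 to 5121 of the 5158 calls kept call and direction where all could be tested. Against MT-HGF, the 2002 higher genes became 833 when arrays were centred on the chemosensory genes, with 2548 lower, and 2858 and 2833 with the block. Leaving out single arrays gave 1363 to 1920 higher and 1551 to 1926 lower, and 61 to 79 and 82 to 95 at 2-fold or more. The cause of these moves was not tested. The replicate numbers were not taken as pairs. Same-numbered RAS and wild-type arrays deviated together at r = 0.395, -0.244 and 0.269, and not every RAS array correlated best with its own number. Same-numbered RAS and MT-HGF arrays did so at r = 0.473, 0.0868 and 0.495, each RAS array best with its own number, which is a hint from the data and not from the design. Of 206 named genes 195 kept their side of the threshold and their sign in RAS against wild type under every setting. Of the others, 5 genes near 0 that were not called changed sign. With array weights Krt5 was at 0.039, Krt14 at 0.015, Itgb4 at -0.017, Cdh5 at 0.032 and Ptprc at 0.022. Repeated quantile normalization gave 0.026 for Krt5 and -0.046 for Itgb4, and chemosensory centring gave 0.0064 for Krt5. With single arrays left out Krt5 ranged from -0.036 to 0.037, Itgb4 from -0.0078 to 0.025, Cdh5 from -0.054 to 0.028 and Ptprc from -0.10 to 0.0072. List counts of 5 or fewer often moved by over 1.5 times when an array was left out. With the background taken over all 1244 measured chemosensory genes, only 11 named genes still had a bound, which grew by 0.681 to 0.71 log2 units. The other named genes with a bound lost it there, because an array of their lower group lay above that background.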

Other observations

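Further gene groups held calls in both directions between RAS and wild-type cells. Over all genes tested 32.5% were called. Of 28 NRF2, glutathione and redox genes 8 were higher and 7 lower (53.6% called). Hmox1, the heme oxygenase, read 12.08, 11.90 and 12.11 in RAS cells, against 9.85, 9.86 and 9.82 in wild-type cells. It rose by 2.19 ± 0.09 log2 units (SE, n = 3 arrays per group) and the sulfiredoxin gene Srxn1 by 1.43 ± 0.07. Gclc, the catalytic subunit of glutathione synthesis, was lower (-0.80 ± 0.07). Of 21 polyamine, nucleotide and one-carbon genes 8 rose and 2 fell, with the uridine phosphorylase gene Upp1 at least 1.31 higher, arginase 1 (Arg1) at 1.68 ± 0.13 and ornithine decarboxylase (Odc1) at 0.99 ± 0.07.

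Among 27 lysosome, cathepsin and autophagy genes 7 rose and 5 fell (44.4% called). The cathepsin gene Ctsl (1.63 ± 0.08) and the autophagy gene Atg9b (1.27 ± 0.08) rose, and the cathepsin gene Ctsk (-0.72 ± 0.09) fell. Of 15 metallothionein and zinc transporter genes 1 rose and 2 fell (20% called), a share below the 32.5% of all genes.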
